A study of Perna viridis with 2 samples.

Results

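Papilins were followed in the mantle of the green mussel Perna viridis through 5 assembled genes, out of 78458 genes listed for the tissue. They are the genes whose best database match is called papilin, papilin-like or PAPLN (the gene symbol of papilin) and whose level reached 10 TPM in at least 1 of 2 mantle regions. TPM is a length-adjusted unit that gives each gene relative to the sum over all genes, so levels can be set side by side between genes. A further 7 genes with such a name stayed under 10 TPM, which makes 12 in all. The 5 were selected on their measured TPM in the 2 regions, and the choice was made with the levels in both regions known, so the values below are a description and carry no test.

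The regions were the periostracal groove between the outer and middle mantle folds, from which the organic outer layer of the shell is secreted, and the submarginal zone further inward, short of the pallial line. The tissue came from untreated, wild mussels of unknown genotype with shells of 6 to 7 cm, and each sample pooled tissue of 6 animals. Both profiles are bulk RNA of all cell types, and the series title names tyrosine oxidation in the making of the periostracum. Each region has 1 deposited profile whose values look like means of 3 libraries, with no library values and no read depth, which leaves every difference below without a replicate check or a p-value. Both tables carry the groove's name over their value column. Each was assigned to its region by the sample record that lists it, and a swap of the 2 tables would reverse all directions given below.

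Papilin is a secreted glycoprotein of the extracellular matrix, best known from the basement membranes of Drosophila. It combines thrombospondin repeats and a stretch related to the ADAMTS proteases (secreted metalloproteases that trim matrix proteins) with a row of Kunitz domains, which are small folds that block serine proteases. In Drosophila it is needed for normal embryonic development, and Kunitz-domain proteins have also been found in the organic matrix of mollusc shells. The deposited tables hold product names but no domain calls, and no sequences were used here, so the presence of Kunitz domains in these 5 genes was not examined and rests on the names alone.

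All 5 papilins had a higher level in the groove than in the submarginal zone, and 4 of them were at least 4-fold higher there. Summed over the 5, the level was 610 TPM in groove tissue and 83.5 TPM in submarginal tissue, a 7.31-fold difference and a log2 ratio of 2.85. The sum amounted to 0.0610% of total groove TPM and 0.00835% of total submarginal TPM. In bulk tissue, fewer cells of a type and less RNA per cell cannot be told apart.

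The 4-fold count uses the log2 ratio of groove over submarginal zone after adding 1 TPM to both levels, which understates the difference of low genes, together with 10 TPM in the higher region. Of all 5800 genes reaching 10 TPM, 548 (9.45%) passed this rule with the higher level in the groove and 719 (12.4%) with the higher level in the submarginal zone. At 8-fold or more in the groove 2 papilins passed, TRINITY_DN2534_c0_g1 and TRINITY_DN581_c0_g1, beside 393 (6.78%) of the 5800 genes. Median-of-ratios scaling moved the 4-fold counts to 684 and 584, so that 53.9% of the 4-fold genes lay in the groove in place of 43.3%, and it moved the median log2 ratio of all 5800 genes from -0.55 to -0.0032, a shift of 0.55. Set against the deposited median of -0.55, the 5 papilin log2 ratios lay between 1.05 and 4.58 units higher.

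The papilin with the highest level was TRINITY_DN2534_c0_g1, matched to papilin isoform X5 of the house fly Musca domestica. It stood at 290 TPM in groove tissue and at 19.3 TPM in submarginal tissue. The groove level was 15.1-fold higher, a log2 ratio of 3.84, and it placed this gene at rank 168 among all product-named genes of the groove against rank 1368 in the submarginal zone. It alone supplied 47.6% of the summed papilin level in groove tissue and 23.1% in submarginal tissue. Without it the other 4 papilins summed to 320 TPM in groove tissue and 64.2 TPM in submarginal tissue, still with a log2 ratio of 2.30.

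A pair of papilins followed at intermediate levels and with smaller differences. TRINITY_DN2531_c0_g1, matched to a papilin-like protein of the moth Hyposmocoma kahamanoa, had 151 TPM in groove tissue and 33.4 TPM in submarginal tissue. This 4.50-fold difference (log2 ratio 2.14) was the smallest among the 4 papilins past the 4-fold rule, and 527 of the 5800 genes had a log2 ratio at least as high. TRINITY_DN4210_c0_g2, matched to papilin of the oyster Crassostrea gigas, had 112 TPM in groove tissue and 18.2 TPM in submarginal tissue. Its groove level was 6.16-fold higher, with a log2 ratio of 2.56.

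TRINITY_DN581_c0_g1, matched to a papilin-like protein of the stalk-eyed fly Teleopsis dalmanni, had the highest log2 ratio of the 5 papilins with a pseudocount of 1 TPM, from a much lower level. It stood at 41.2 TPM in groove tissue and at 1.57 TPM in submarginal tissue, a 26.2-fold difference and a log2 ratio of 4.04. With a pseudocount of 5 TPM its log2 ratio was 2.81, below the 3.60 of TRINITY_DN2534_c0_g1, so this order rests on the low submarginal value. It is the only one of the 5 that passed the 10 TPM minimum through the groove alone. The other 4 reached 10 TPM in both regions, and 3 of those 4 were higher in the groove by 4-fold or more.

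TRINITY_DN4047_c0_g1 differed least. It is the only one of the 5 whose best match is a mussel gene, PAPLN of Mytilus coruscus, and it had 15.9 TPM in the groove against 11.0 TPM in submarginal tissue. The groove level was 1.45-fold higher, a log2 ratio of 0.50, which is under the 4-fold rule. It was also the papilin nearest to the 10 TPM minimum from above, and the nearest below it was TRINITY_DN35827_c0_g1 with 5.20 TPM.

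**Figure D1:**
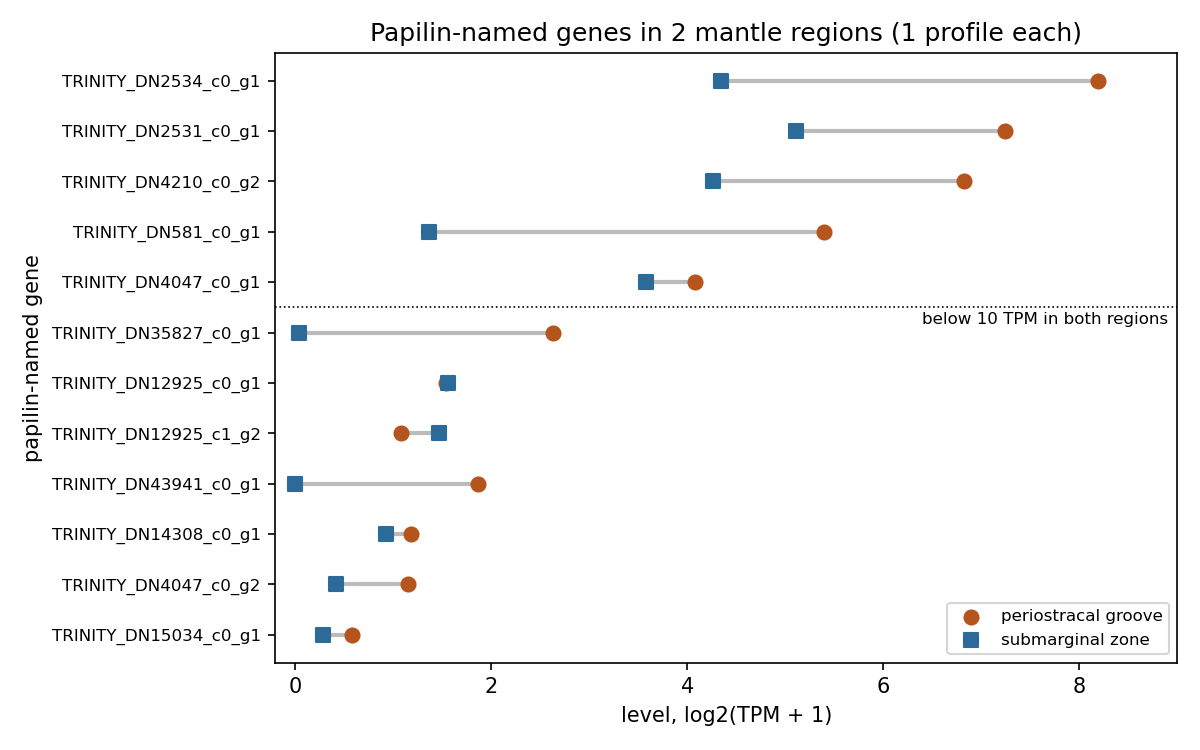
Level of each papilin-named gene as log2(TPM + 1) in the periostracal groove (circles) and the submarginal zone (squares), 1 profile per region, sorted by mean level. The 5 genes above the dotted line reach 10 TPM, and in each of them the circle lies to the right, with the widest gap for TRINITY_DN581_c0_g1 (41.2 against 1.57 TPM) and the narrowest for TRINITY_DN4047_c0_g1 (15.9 against 11.0 TPM).

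The order of the levels differed between the regions. In the groove it ran from TRINITY_DN2534_c0_g1 through TRINITY_DN2531_c0_g1, TRINITY_DN4210_c0_g2 and TRINITY_DN581_c0_g1 down to TRINITY_DN4047_c0_g1, and the highest level was 18.2 times the lowest. In the submarginal zone TRINITY_DN2531_c0_g1 came first, with TRINITY_DN2534_c0_g1 and TRINITY_DN4210_c0_g2 close together at 19.3 and 18.2 TPM, then TRINITY_DN4047_c0_g1 and last TRINITY_DN581_c0_g1, a span of 21.3 times. Whether neighbours in either order differ beyond the spread between libraries cannot be said, since no library values are given.

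The makeup of the summed papilin level therefore differed as well. TRINITY_DN2531_c0_g1 held 24.7% of it in groove tissue and 40.1% in submarginal tissue, where it replaced TRINITY_DN2534_c0_g1 as the largest contributor. The mussel-matched TRINITY_DN4047_c0_g1 held 2.61% of the groove sum and 13.1% of the submarginal sum, although its own level was lower there. TRINITY_DN581_c0_g1 went the other way, with 6.76% in groove tissue and 1.89% in submarginal tissue, while TRINITY_DN4210_c0_g2 held 18.4% and 21.8%.

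**Figure D2:**
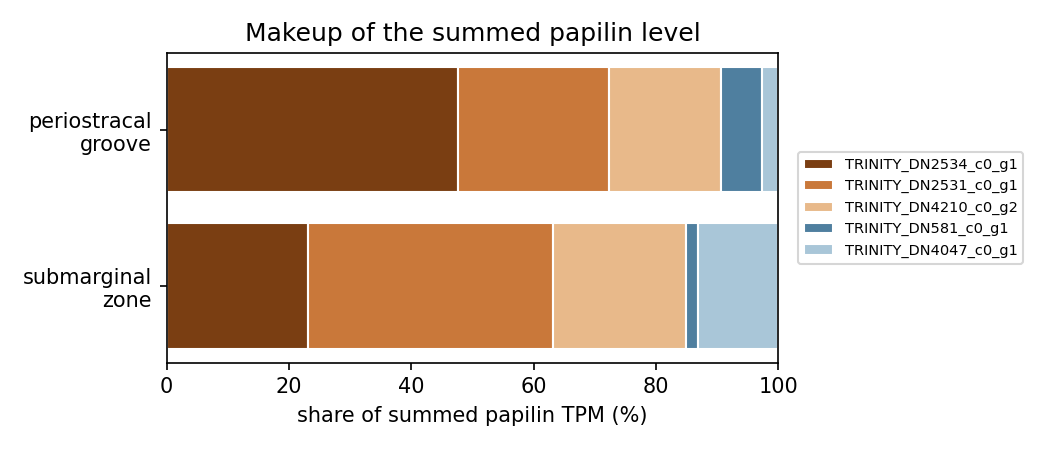
Share of the summed TPM of the 5 papilins (horizontal axis, percent) that each gene holds in the periostracal groove and in the submarginal zone, 1 profile per region. TRINITY_DN2534_c0_g1 makes up 47.6% in groove tissue and 23.1% in submarginal tissue, and TRINITY_DN4047_c0_g1 2.61% and 13.1%.

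The 7 papilin-named genes under 10 TPM added little, with a sum of 13.9 TPM in groove tissue and 5.22 TPM in submarginal tissue. Their values went both ways, 5 being higher in groove tissue and 2 in submarginal tissue, with a median log2 ratio of 0.30. The highest, TRINITY_DN35827_c0_g1 (matched to Papilin of the water flea Daphnia magna), had 5.20 TPM in groove tissue and 0.027 TPM in submarginal tissue. TRINITY_DN43941_c0_g1, matched to Drosophila subpulchrella, had 2.64 TPM in groove tissue and was listed at 0 in the submarginal zone.

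TRINITY_DN12925_c0_g1 (matched to the spider Trichonephila clavipes) was almost even, with 1.91 and 1.96 TPM. The remaining 4 lay between 0.50 and 1.27 TPM in groove tissue and between 0.22 and 1.78 TPM in submarginal tissue. Over all 12 papilin-named genes the sum was 624 TPM in groove tissue and 88.7 TPM in submarginal tissue, close to that of the 5 alone.

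What the 12 genes share by name is mostly an arthropod match. The best match came from an insect, arachnid or crustacean for 8 of the 12 and for 3 of the 5 at 10 TPM or more. It came from a bivalve for the other 4, of which 3 matched a Mytilus mussel. A name of this kind says which database protein was nearest, and does not show that the gene is the mussel's counterpart of that protein. TRINITY_DN2531_c0_g1 and the low gene TRINITY_DN14308_c0_g1 (1.27 against 0.91 TPM) had matches of the same name from the same moth. Whether they are separate genes or fragments of 1 gene cannot be told from the names.

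The gene identifiers are of the Trinity type, which places contigs that share sequence in 1 component. Of the 5 components that hold a papilin of 10 TPM or more, 3 held no other gene in the tables. The component of TRINITY_DN4210_c0_g2 also held TRINITY_DN4210_c0_g1, which has no description and had 5.52 TPM in the groove against 1.01 TPM in submarginal tissue. That is a 5.47-fold difference, near the 6.16-fold of its papilin neighbour. The component of TRINITY_DN4047_c0_g1 held another PAPLN entry, TRINITY_DN4047_c0_g2, with 1.22 against 0.34 TPM, and the unnamed TRINITY_DN4047_c0_g3, with 0.60 against 0.25 TPM. Whether reads were divided among the genes of a component was not tested.

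**Figure D3:**
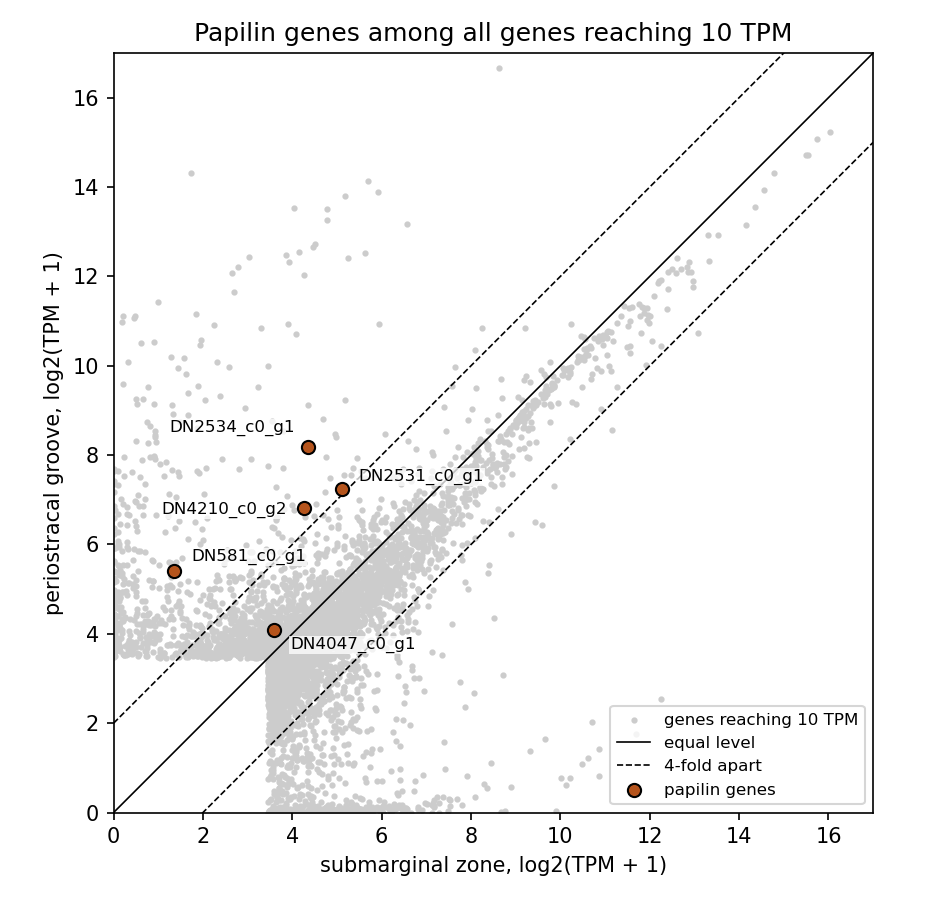
Level in the submarginal zone (horizontal) and the periostracal groove (vertical) as log2(TPM + 1) for the 5800 genes reaching 10 TPM in either region (grey) and the 5 papilins (coloured). The solid line marks equal levels and the dashed lines a 4-fold difference. The 4 papilins past 4-fold lie above the upper dashed line, TRINITY_DN2531_c0_g1 close to it, and TRINITY_DN4047_c0_g1 lies between the solid and the upper dashed line.

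Genes of related function were collected by product name in 6 lists and compared in the same way, with papilins left out. Every gene called in these lists, in either direction, reached 10 TPM in 1 region alone. The minimum therefore admitted each called gene through the region where it is high. Other Kunitz-domain proteins were few. Of 10 such genes 3 reached 10 TPM. Among these 3, 2 were higher in the groove by 4-fold or more, beside 9.45% of all 5800 genes. The median log2 ratio of the 3 was 2.52 against -0.55 over all 5800 genes. TRINITY_DN51065_c0_g1 had 17.2 TPM in groove tissue and 0.047 TPM in submarginal tissue, and TRINITY_DN23504_c0_g1 had 17.2 against 2.16 TPM. TRINITY_DN3167_c0_g1, the most abundant of the 3, was nearly level with 39.6 and 44.0 TPM. Summed over the 10 genes, other Kunitz-domain proteins had 81.2 TPM in groove tissue and 50.6 TPM in submarginal tissue, a 1.60-fold difference. TRINITY_DN3167_c0_g1 supplied most of the submarginal sum, so this fold rests largely on that gene. The 5 papilins differed 7.31-fold (log2 ratio 2.85), but they were chosen for reaching 10 TPM, whereas the 10 genes had no minimum. All 12 papilin-named genes, also with no minimum, summed to 624 TPM in groove tissue and 88.7 TPM in submarginal tissue, a log2 ratio of 2.80.

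Protease inhibitors without a Kunitz name were mostly less than 4-fold apart, as were most of all 5800 genes. Among the 8 with 10 TPM or more, 1 was at least 4-fold higher in groove tissue and none in submarginal tissue. Over all 5800 genes the shares were 9.45% and 12.4%. The median log2 ratio of the 8 was -0.036. The 1 gene past 4-fold was peptidase inhibitor 16, at 741 against 0.70 TPM. It is named as an inhibitor but is a member of the CAP family of secreted cysteine-rich proteins. TIMP4, a tissue inhibitor of metalloproteinases, had 48.8 TPM in groove tissue and 16.5 TPM in submarginal tissue. Protease inhibitor-like protein-1 ran the other way, with 100.0 TPM in groove tissue and 242 TPM in submarginal tissue.

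Secreted serine proteases are the class that Kunitz domains block. Among the 6 with 10 TPM or more, the rule with its pseudocount called none higher in groove tissue and 3 higher in submarginal tissue. Over all 5800 genes the shares were 9.45% and 12.4%. The median log2 ratio of the 6 was -2.19. The 4 genes matched to plasminogen, the precursor of the protease plasmin, did not go one way. A pair had 0.70 TPM in the groove against 1030 TPM in submarginal tissue and 0.56 against 313 TPM. TRINITY_DN8903_c0_g2 had 25.8 against 46.1 TPM. TRINITY_DN19908_c0_g1 was higher in the groove with 12.4 against 2.52 TPM, which is 4.91-fold in plain TPM but a log2 ratio of 1.93 after the pseudocount, just under the rule, and it was called with a pseudocount of 0.1 TPM and under 2 of the 3 scalings. Another gene, with Elastase-1 as the first of its names, was listed at 0 in the groove and had 10.9 TPM in submarginal tissue. Whether any papilin acts on these proteases was not tested. The list summed to 80.3 TPM in groove tissue and 1451 TPM in submarginal tissue, and the pair of plasminogen genes that were lower in the groove made up most of the latter.

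The ADAMTS proteases, to which papilin is related in part of its sequence, were scarce. Of 27 such genes 1 reached 10 TPM, ADAMTS18 with 6.34 TPM in groove tissue and 14.9 TPM in submarginal tissue, and it was less than 4-fold apart. Genes listed by name as thrombospondin repeat proteins were divided, and the presence of the repeats was not examined. Among the 9 with 10 TPM or more, 4 were at least 4-fold higher in groove tissue and 2 in submarginal tissue. Over all 5800 genes the shares were 9.45% and 12.4%. The median log2 ratio of the 9 was 0.72. All of the 9 except TRINITY_DN3935_c0_g1, which is named for a thrombospondin domain, were named hemicentin, a large matrix protein. The list at this level is therefore mostly one of hemicentins, and so were its extremes. TRINITY_DN1355_c1_g1 had 89.7 TPM in the groove against 2.54 TPM and TRINITY_DN4176_c0_g1 16.1 against 0.15 TPM, whereas a Hemicentin-1 gene, TRINITY_DN5901_c0_g1, had 0.08 TPM in groove tissue and 59.1 TPM in submarginal tissue.

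Basement membrane proteins were compared because papilin was described from basement membranes. Among the 14 with 10 TPM or more, 9 were at least 4-fold higher in groove tissue and none in submarginal tissue. Over all 5800 genes the shares were 9.45% and 12.4%. The median log2 ratio of the 14 was 3.54. All 9 passed the minimum through the groove alone, with at most 5.69 TPM in submarginal tissue. The count was carried by peroxidasin (PXDN), a haem peroxidase that cross-links collagen IV, which supplied 8 of the 9. The leading PXDN genes had 246 against 0.86 TPM (TRINITY_DN1036_c0_g1) and 29.2 against 0.067 TPM (TRINITY_DN105_c0_g1). Among the other 5 basement membrane genes only nidogen-2-like, a linker of basement membrane networks, passed 4-fold, with 19.6 TPM in the groove against 0.02 TPM. The remaining 4 were 2 COL4A genes (collagen IV chains), SPARC (a collagen-binding matrix protein) and DAG1 (dystroglycan, a laminin receptor), and without PXDN the 5 genes summed to 166 TPM in groove tissue and 206 TPM in submarginal tissue. These 4 were chosen for naming after their values were seen. With a pseudocount of 5 TPM, 5 basement membrane, 2 thrombospondin repeat and 1 Kunitz-domain gene passed 4-fold toward the groove.

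**Figure D4:**
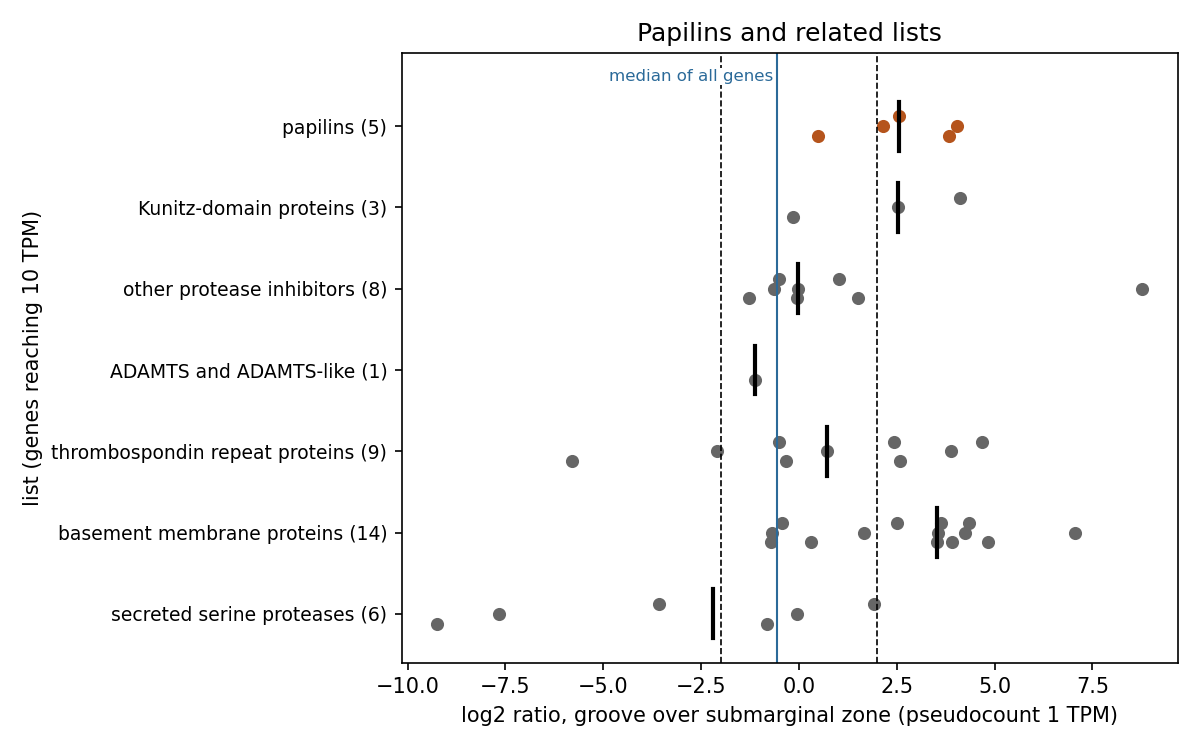
Log2 ratio of groove over submarginal zone with a pseudocount of 1 TPM (horizontal axis) for the 5 papilins and for genes reaching 10 TPM in 6 related lists (vertical axis, number of genes in parentheses). Points are genes, thick bars list medians, dashed lines 4-fold differences and the blue line the median of all 5800 genes (-0.55). Papilins range from 0.50 to 4.04, whereas secreted serine proteases range from -9.24 to 1.93.

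The genes most like single papilins were looked for among product-named genes reaching 10 TPM whose mean level lay within 2-fold, by the smallest difference in log2 ratio. With 2 profiles this likeness rests on 1 ratio per gene. For TRINITY_DN2534_c0_g1 the nearest of 202 candidates was a gene named proteasome endopeptidase complex, with 355 TPM in groove tissue and 30.2 TPM in submarginal tissue (difference in log2 ratio 0.33). A pancreatic lipase-related protein (370 against 12.9 TPM) and a farnesoic acid-o-methyltransferase (555 against 19.5 TPM) followed at differences of 0.89 and 0.92. For TRINITY_DN581_c0_g1 the nearest of 1394 candidates was the amino acid transporter B(0+) with 51.2 against 1.89 TPM. It was followed by caveolin 3, a membrane coat protein, with 32.2 against 0.82 TPM, and by the taurine transporter SLC6A6 with 32.8 against 1.30 TPM. The differences in log2 ratio were 0.14, 0.15 and 0.16.

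Summed levels of cell type markers, picked by product name, differed between the regions. Whether the cell types themselves differed, and their part in the papilin values, was not tested. Summed marker levels were lower in the groove for muscle (4592 against 14465 TPM over 34 genes), cilia (282 against 909 TPM over 65), germ cells (25.2 against 323 TPM over 9), haemocytes (2337 against 3815 TPM over 66) and neurons (77.3 against 162 TPM over 29). In the haemocyte list the C1q gene TRINITY_DN825_c0_g1 alone had 0.03 and 958 TPM. In the neuron list an APGW-amide-related neuropeptide gene had 43.9 and 108 TPM. Median log2 ratios at 10 TPM or more were -0.39 (haemocytes), -1.17 (muscle), -1.74 (cilia), -4.81 (germ cells) and -1.42 (neurons). Over all 5800 genes the median was -0.55. By the 4-fold rule, 4 of 25 haemocyte genes reaching 10 TPM were higher in groove tissue and 4 in submarginal tissue, beside 9.45% and 12.4% of all genes. Of 8 muscle genes 1 was higher in the groove and 0 in submarginal tissue. Calls went toward submarginal tissue alone for 5 of 16 cilia genes and 7 of 7 germ-cell genes, and neither of 2 neuron genes was called. Listed at 0 in the groove were 7 muscle, 9 cilia, 1 germ-cell, 2 haemocyte and 1 neuron genes, and at 0 in submarginal tissue 5, 8, 0, 4 and 1 in the same order. Mantle epithelium genes summed to 10139 TPM in groove tissue and 528 TPM in submarginal tissue over 24 genes, of which the shell protein-3 gene TRINITY_DN5815_c0_g1 alone had 9781 and 26.5 TPM. The other 23 mantle epithelium genes summed to 358 TPM in groove tissue and 502 TPM in submarginal tissue, so the direction of the full sum rests on the shell protein-3 gene. The direction of the sum of the 23 depends in turn on a carbonic anhydrase gene, TRINITY_DN33711_c0_g1. It had 0.13 TPM in groove tissue and 221 TPM in submarginal tissue. Members of the list went both ways. Of 8 reaching 10 TPM, 2 were called higher in groove tissue and 1 in submarginal tissue, with a median log2 ratio of 0.22.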

How the data were processed

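Each region has 1 deposited column of TPM, with a row for every assembled gene. TPM values were computed by the authors, and fastp was among their tools, per the submitters' processing notes. Total RNA was DNase-treated and made into TruSeq libraries, per the labels' protocols. Which assembler, quantifier and annotation source made them is not stated in the labels or headers. The TPM columns summed to 999875 (groove) and 999820 (submarginal zone). All values fall on steps of 1/300, within a tolerance of 0.002 after multiplication by 300, as does a mean of 3 values with 2 decimals, and the labels' design text speaks of 3 biological replicates. TPM keeps no depth, so no interval is given.

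Another 5 genes had empty cells and were dropped. Ratios were log2 of groove over submarginal zone with a pseudocount of 1 TPM. A gene was called at 4-fold with 10 TPM in the higher region. With 1 profile per region no test was made. Lists were patterns on product names, and of several joined names the first was used. List patterns were corrected after product names and values had been seen. The members and lists were chosen with earlier results of these data known. Named were all 5 papilins, the 3 highest below 10 TPM, and up to 3 genes per list with the largest absolute ratio. Alternatives were other pseudocounts, thresholds, minimums and scalings, and for the family ratio the omission of the leading papilin. Software was pandas 2.3.3 and numpy 2.4.6 under Python 3.11.15, with figures from matplotlib 3.10.9. No genome, protein or transcript sequence was used here.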

Additional observations from a re-analysis of the deposited data

How the results depend on the processing

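Which region is higher cannot turn with the pseudocount or the threshold, and all 3 scalings moved the ratios toward the groove, so the directions of the 5 papilins were not put to a test by these alternatives. Over them the log2 ratio ranged from 3.60 to 4.40 for TRINITY_DN2534_c0_g1, from 2.02 to 2.70 for TRINITY_DN2531_c0_g1, from 2.34 to 3.12 for TRINITY_DN4210_c0_g2, from 2.81 to 4.63 for TRINITY_DN581_c0_g1 and from 0.39 to 1.03 for TRINITY_DN4047_c0_g1. The family ratio ranged from 2.30 to 3.43 over 9 alternatives. Its low end came from leaving out the leading papilin. With that gene kept, the lowest family ratio was 2.80, at pseudocount 5. At 8-fold, 2 papilins in place of 4 were called, since TRINITY_DN2531_c0_g1 (2.14) and TRINITY_DN4210_c0_g2 (2.56) lie under that threshold by construction. With a minimum of 1 TPM, which let in 6 of the 7 low papilin-named genes, 5 papilin-named genes were called higher in the groove. These were the same 4 and the low gene TRINITY_DN35827_c0_g1 (log2 ratio 2.59), while TRINITY_DN4047_c0_g1 stayed uncalled. The share over all genes was not computed at this minimum. At pseudocount 5 the order of the leading ratios turned, with 2.81 for TRINITY_DN581_c0_g1 and 3.60 for TRINITY_DN2534_c0_g1. The leading papilin's share was 46.5% in groove tissue and 21.8% in submarginal tissue with a minimum of 1 TPM, 48.8% and 26.6% with 20 TPM, and 46.5% and 21.7% with no minimum, as the genes summed change.

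Counts in related lists moved more. By construction a larger pseudocount shrinks the log2 ratios and a smaller one widens them. Each scaling shifts the ratios toward the groove. With pseudocount 5, genes higher in the groove were 1 for Kunitz-domain, 2 for thrombospondin repeat and 5 for basement membrane proteins, and 1 thrombospondin repeat gene was higher in the submarginal zone. Pseudocount 0.1 and the median-of-ratios and upper-quartile scalings each called 1 serine protease higher in the groove, and both scalings left 1 thrombospondin repeat gene higher in the submarginal zone. Median-of-ratios scaling also called 2 other protease inhibitors higher in the groove. At 2-fold, 3 other protease inhibitors and 1 serine protease were higher in the groove, and 1 other inhibitor and 1 ADAMTS gene in the submarginal zone. At 8-fold, 1 Kunitz-domain and 2 thrombospondin repeat genes were higher in the groove and 1 of the latter in the submarginal zone. With a minimum of 1 TPM, the thrombospondin repeat list had 6 calls toward the groove against 7 toward the submarginal zone. With 20 TPM it had 3 against 1, while 0 Kunitz-domain and 4 basement membrane genes were called toward the groove. Shares over all genes were not computed at either minimum.

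No paired analysis was possible because each region has 1 profile of averaged values. Without library values or depth, the precision of low levels, such as 1.57 TPM for TRINITY_DN581_c0_g1, is unknown.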
